A study of Oryza sativa with 8 samples.

Results

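A set of 10 genes of the jasmonate pathway was followed in rice roots at a low and a higher supply of ammonium. They comprised 4 genes of jasmonate synthesis (AOS2, AOC, OPR7 and JAR1) and 6 genes for JAZ repressors (JAZ6 and JAZ8 to JAZ12). They were picked by their rice RAP locus identifiers, which the array's probe names carry, and were 10 of the 29689 loci on the array. All 10 were measured, by 19 probes that were well above background on all 8 arrays.

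Jasmonates are lipid-derived hormones of wounding, defence and root growth. Lipoxygenase, allene oxide synthase (AOS) and allene oxide cyclase (AOC) work in sequence on linolenic acid in plastids, OPDA reductase (OPR) acts on the cyclised product in peroxisomes, and JAR1 couples the resulting jasmonic acid to isoleucine. The conjugate joins the F-box protein COI1 to JAZ proteins, which are then degraded. JAZ proteins otherwise hold transcription factors inactive, and many JAZ genes are themselves induced by jasmonate.

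The RNA came from whole roots of the japonica cultivar Koshihikari, which had grown for 10 days in ammonium chloride at 0.005 mM or at 1 mM. Each concentration had 4 biological replicates, each on its own array labelled with Cy3 dye. No mutant, transgene or hormone treatment is named for either group, and how many plants made up a replicate is not given in the sources used here. The comparison addressed how root gene expression differs with external ammonium.

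Each concentration had a slide and a scan of its own, so a difference by slide or scan and one by ammonium cannot be told apart, and this holds for every change given here. On each array 81.4% to 85.1% of spots exceeded background clearly. Across genes, arrays of the same concentration correlated at 0.9925 to 0.9966, and arrays of different concentrations at 0.9242 to 0.9345. The number of arrays limits the precision. Of the 4 root markers listed, all were above background on every array. The silicon transporters Lsi1 and Lsi2 and the Casparian strip gene CASP1 fell, and the remaining locus rose. All 7 listed markers of green tissue rose, by 0.40 to 1.92 log2 units. Of these, CAB1R and RCA lost their calls in 3 and 2 of 19 alternative settings. The 7 markers summed to 83.5 to 98.1 at 0.005 mM and 218 to 257 at 1 mM, in multiples of the array's 75th percentile. For the 4 root markers the sums were 114 to 123 and 125 to 131. The root sum is mostly Os02g0662000, the locus that rose (mean level 5.43 to 6.36), and Lsi1 (6.05 to 5.28). It thus rose although 3 of the 4 root markers fell. None of the 7 was at background on any array. Their part in the results below was not tested.

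Levels are log2 signals of a probe minus the 75th percentile of its array, and a level of 0 is that percentile. Changes are 1 mM minus 0.005 mM on that log2 scale, ± SE from limma with n = 4 per group. A gene was called changed at an adjusted p under 0.05. In whole roots, fewer cells of a type and less RNA per cell cannot be told apart. At 1 mM, 4 of the 10 genes were called higher, 4 were called lower and 2 were not called. Of all 24981 units tested, 32.2% were called higher, 43.8% lower and 76.1% in either direction, so the 10 genes were called about as often as the rest of the array. Their median change was -0.062, and that of all units was -0.087. The arrays of both concentrations did not overlap for 7 of the 10 genes, and for 71.6% of all units. With a change of at least 2-fold as a further condition, JAR1 was higher (9.85% of all units), and AOS2 and JAZ9 were lower (8.67%). Of the 19 probes taken singly, 7 were called higher, 9 lower and 3 were not called, and 76.9% of all probes were called in either direction.

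**Figure D1:**
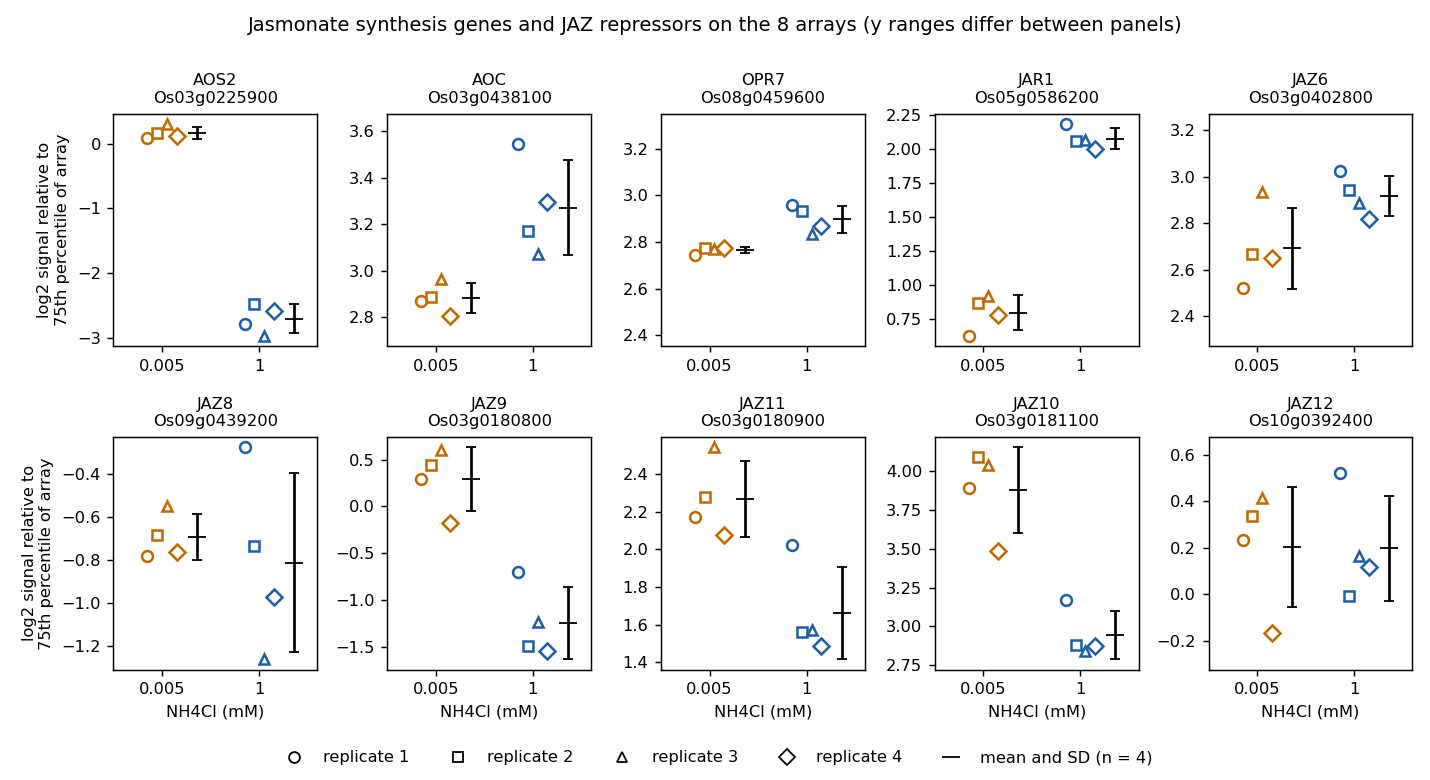
Log2 signal relative to the 75th percentile of the array (y axis, a separate range in each panel) against NH4Cl concentration in mM (x axis) for each of the 10 genes. Symbols are the 4 replicate arrays and the bars beside them show the mean and SD. AOS2 fell from a mean of 0.17 to -2.70 while JAR1 lay between 2.001 and 2.18 on all 1 mM arrays.

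Among the synthesis genes, AOS2 fell strongly while AOC, OPR7 and JAR1 were called higher at 1 mM. AOS2, an allene oxide synthase that makes the unstable epoxide precursor of jasmonates, had levels of 0.091, 0.17, 0.31 and 0.12 on the 0.005 mM arrays (replicates 1 to 4). On the 1 mM arrays its levels were -2.79, -2.47, -2.97 and -2.59. All 1 mM arrays lay far below all 0.005 mM arrays, with no overlap. The mean went from 0.17 ± 0.096 to -2.70 ± 0.22 (SD, n = 4), a change of -2.87 ± 0.11 (adjusted p = 1.54e-07), or 7.33-fold lower. Only 0.689% of all units had a lower change. All 4 probes for AOS2 fell, by log2 changes of -2.92 to -2.65. Over 19 alternative settings of the analysis its change ranged from -3.25 to -2.68.

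JAR1, the enzyme that conjugates jasmonic acid to isoleucine and so makes the active hormone, moved the other way. Its levels were 0.63, 0.87, 0.92 and 0.78 at 0.005 mM. At 1 mM they were 2.18, 2.06, 2.07 and 2.001. The groups did not overlap, and the 4 arrays at 1 mM lay close together. The change was 1.28 ± 0.071 (adjusted p = 1.10e-06), or 2.42-fold higher, from its single probe. It ranged from 0.90 to 1.32 over the 19 alternatives.

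AOC, which cyclises the AOS product to OPDA, had levels of 2.87, 2.89, 2.97 and 2.81 at 0.005 mM. At 1 mM they were 3.54, 3.17, 3.07 and 3.30, with no overlap between the groups. The change was 0.39 ± 0.097 (adjusted p = 0.00650), and all 3 AOC probes were called higher, by 0.34 to 0.39. This call depended on the scaling of the arrays: the change was 0.12 (adjusted p = 0.413) with no scaling, 0.14 (0.237) after quantile normalization, 0.0066 (0.966) when scaled to the spike-in probes and 0.13 (0.230) after normexp with quantile normalization, where each bracket holds the adjusted p.

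OPR7, an OPDA reductase of the peroxisomal step, had levels of 2.75, 2.77, 2.77 and 2.77 at 0.005 mM and of 2.96, 2.93, 2.83 and 2.87 at 1 mM. The groups did not overlap, but the change was small, 0.13 ± 0.039 (adjusted p = 0.0142), and both probes were called higher. Its direction turned with the scaling, to -0.14 with none (adjusted p = 0.127) and -0.082 after normexp with quantile normalization (adjusted p = 0.0895). It was called lower after quantile normalization, at -0.11 (adjusted p = 0.0450), and with spike-in scaling, at -0.25 (adjusted p = 0.0270). Of the 4 synthesis genes, AOS2 and JAR1 therefore kept their calls under all 19 alternatives, and AOC and OPR7 did not.

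The median change of all units also differed between scalings. It was -0.087 with the 75th percentile, -0.36 with no scaling and -0.47 with the 7 spike-in probes. The share of calls that were higher went from 42.4% to 24.9% and 20.0%. Relative to the median of all units, the changes of AOC, OPR7 and JAZ6 were 0.47, 0.22 and 0.31 with these 3 scalings, which move all genes on an array alike. After quantile normalization, where the median was -0.11, they were 0.25, 0.0068 and 0.10, and after normexp with quantile normalization, where it was -0.093, they were 0.22, 0.011 and 0.071.

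**Figure D2:**
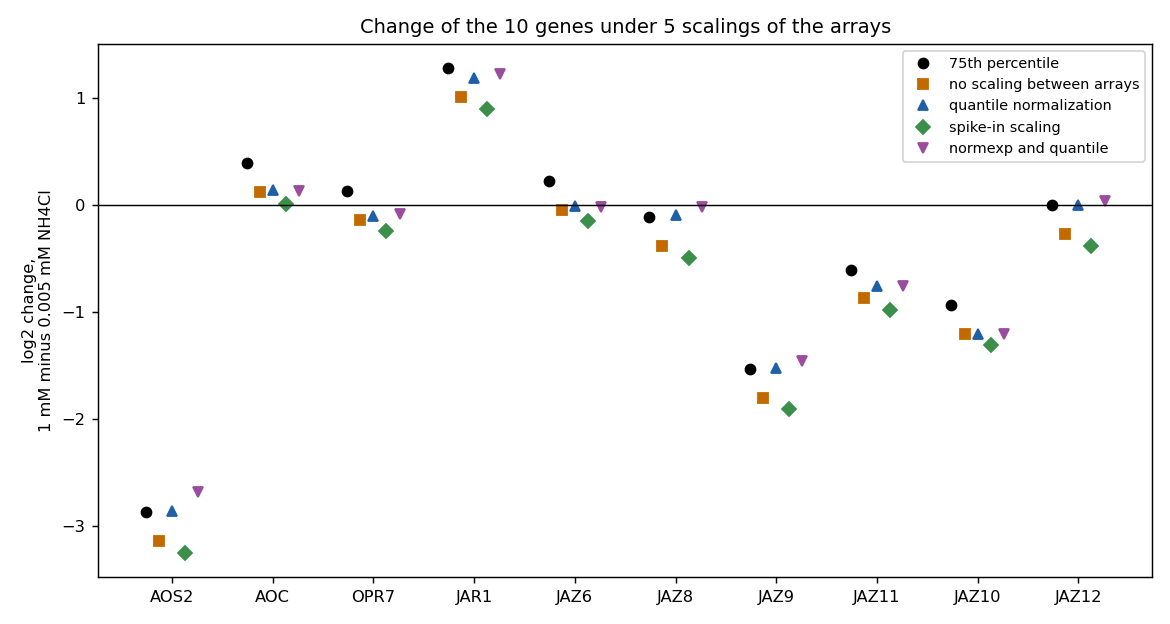
Log2 change, 1 mM minus 0.005 mM NH4Cl (y axis), of the 10 genes (x axis) under 5 scalings of the arrays, 1 symbol for each scaling. AOS2, JAZ9, JAZ10 and JAZ11 lie below 0 and JAR1 above 0 under all 5, while OPR7 and JAZ6 lie above 0 with the 75th percentile and below 0 with the other 4.

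Of the 6 JAZ repressors, JAZ9, JAZ10 and JAZ11 fell, JAZ6 was called higher by a small margin, and JAZ8 and JAZ12 were not called. JAZ9, a repressor studied in rice for tolerance of salt and of potassium shortage, had levels of 0.30, 0.44, 0.61 and -0.18 at 0.005 mM. Its levels at 1 mM were -0.70, -1.49, -1.24 and -1.54. The groups did not overlap, and replicate 4 at 0.005 mM and replicate 1 at 1 mM lay nearest to each other. The change was -1.53 ± 0.22 (adjusted p = 0.000311), or 2.90-fold lower, and 3.69% of all units had a lower change.

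JAZ10 had levels of 3.89, 4.09, 4.04 and 3.48 at 0.005 mM. Its levels at 1 mM were 3.17, 2.88, 2.84 and 2.87. Again the groups did not overlap, and the same replicates lay nearest to each other. The change was -0.94 ± 0.14 (adjusted p = 0.000357), and both JAZ10 probes fell.

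JAZ11 had levels of 2.17, 2.28, 2.54 and 2.08 at 0.005 mM and of 2.03, 1.56, 1.57 and 1.49 at 1 mM. Replicate 1 at 1 mM lay just under the lowest 0.005 mM array, and the other 1 mM arrays lay clearly lower. The change was -0.61 ± 0.14 (adjusted p = 0.00431). JAZ9, JAZ10 and JAZ11 kept their direction and their calls under all 19 alternatives.

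JAZ9, JAZ11 and JAZ10 are listed on chromosome 3 as TIFY11A, TIFY11C and TIFY11B in the RefSeq gene table (assembly ASM3414082v1), with 0 protein-coding genes between neighbours. JAZ numbers differ between naming schemes in that table, so the locus identifiers define the genes here (JAZ9 Os03g0180800, JAZ11 Os03g0180900, JAZ10 Os03g0181100). All 3 neighbours fell, by different amounts. The change of JAZ9 was lower than that of JAZ10 by 0.60 log2 units and lower than that of JAZ11 by 0.93, and that of JAZ10 was lower than that of JAZ11 by 0.33. The gap between 2 genes was taken within each array, and for each pair all 1 mM gaps lay below all 0.005 mM gaps. Each of the 3 pairs had p = 0.0286 in a two-sided exact permutation test over 70 splits, the smallest that 4 arrays against 4 can give. Adjustment over the 3 pairs leaves equal p-values as they are, so the adjusted p was also 0.0286 and adds nothing. The 3 gaps are not independent, since any 2 of them fix the third. After quantile normalization the JAZ9 and JAZ10 changes differed by 0.32 with an exact adjusted p = 0.114, so that pair's difference was not called there. Without any one of the 0.005 mM arrays the JAZ9 and JAZ10 pair, and without any one of the 1 mM arrays the JAZ10 and JAZ11 pair, had an exact adjusted p = 0.0571, with differences of -0.62 to -0.55 and -0.37 to -0.29. Probe sequences were not used here, so shared signal between these related genes was not tested.

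JAZ6 had levels of 2.52, 2.67, 2.93 and 2.65 at 0.005 mM and of 3.02, 2.94, 2.89 and 2.82 at 1 mM. The groups overlapped, since replicate 3 at 0.005 mM lay above 2 of the 1 mM arrays. The change was 0.23 ± 0.089 (adjusted p = 0.0468) for the brightest of its 3 probes. Another probe gave 0.21 and was not called (adjusted p = 0.0726 over all probes). The dimmest was called lower, by 1.07 ± 0.15 (adjusted p = 0.000180 over all probes), from a mean of -3.37 to -4.45. The JAZ6 call was lost in 13 of the 19 alternatives, and with the mean of its 3 probes the change was -0.21 (adjusted p = 0.0753). Its direction was not settled by these arrays.

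JAZ8, a repressor that in rice acts in jasmonate-induced resistance to bacterial blight, had levels of -0.78, -0.69, -0.55 and -0.77 at 0.005 mM. At 1 mM they were -0.28, -0.74, -1.26 and -0.98. The 1 mM arrays spread to both sides of the 0.005 mM arrays. The change was -0.12 ± 0.19 (adjusted p = 0.590), with a 95% interval of -0.55 to 0.32.

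JAZ12 had levels of 0.23, 0.34, 0.41 and -0.17 at 0.005 mM and of 0.52, -0.0079, 0.16 and 0.12 at 1 mM, and the groups overlapped. The change was -0.0062 ± 0.15 (adjusted p = 0.972), with a 95% interval of -0.36 to 0.34. Under spike-in scaling it was -0.39 and called lower (adjusted p = 0.0471). Neither interval excludes a modest change in either direction.

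**Figure D3:**
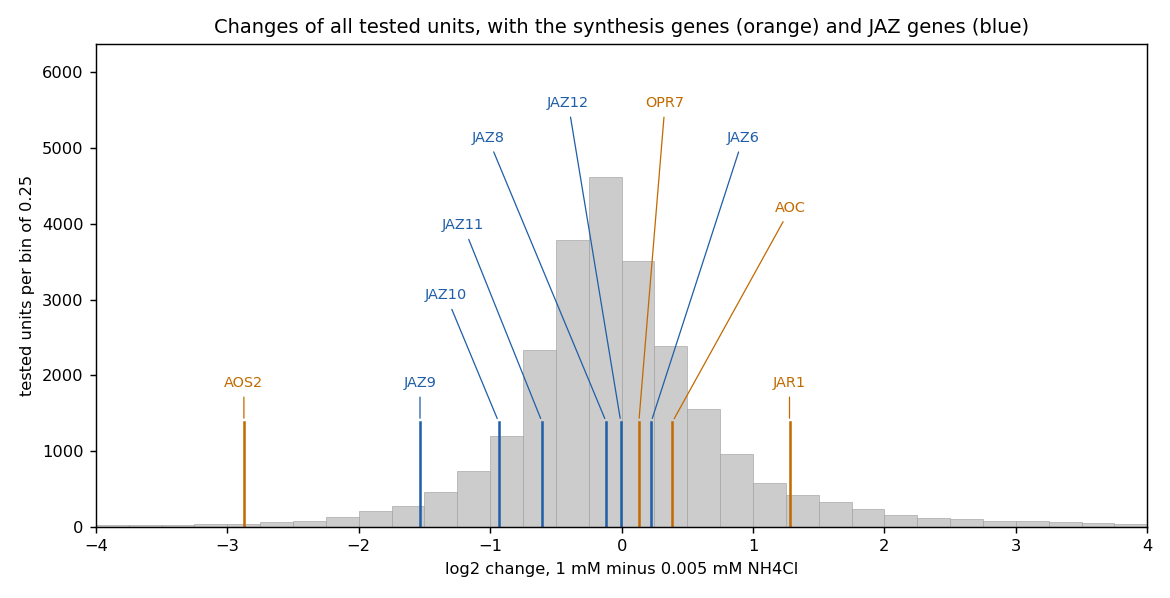
Number of tested units (y axis) per bin of 0.25 in log2 change, 1 mM minus 0.005 mM NH4Cl (x axis). Vertical lines mark the 4 synthesis genes in orange and the 6 JAZ genes in blue. AOS2 at -2.87 lies in the lower tail, JAZ9 at -1.53 and JAR1 at 1.28 on the flanks, and JAZ8, JAZ12 and OPR7 near the median of -0.087.

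The rest of the pathway was described from a list of 24 further loci, of which 19 were tested. At 1 mM, 6 were called higher, 9 lower and 4 were not called, against the 32.2% and 43.8% of all units given above, and their median change was 0.0093. Steps before AOS gave the largest changes in the list. CM-LOX1 (Os08g0508800), a lipoxygenase gene, had levels of -5.23, -5.11, -4.89 and -5.19 at 0.005 mM. At 1 mM they were -0.93, -0.94, -1.13 and -0.97, so the groups were far apart. Its change was 4.11 ± 0.082 (adjusted p = 1.22e-08), or 17.3-fold higher. CM-LOX2 (Os08g0509100), also a lipoxygenase gene, rose by 3.52 ± 0.17 (adjusted p = 5.50e-07), from a low mean level of -6.87 to -3.36. Only 2 of its 3 probes were kept. The dimmer of these exceeded background clearly on only 5 of the 8 arrays. Its levels were -9.52 to -6.30 at 0.005 mM and -5.78 to -5.54 at 1 mM. Its change of 2.38 ± 0.58 rests partly on arrays where it did not clearly exceed background. It is therefore no separate support for the rise. The change of CM-LOX2 ranged from 1.99 to 3.59 over the alternatives, and 1.99 came from normexp with quantile normalization.

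The second allene oxide synthase gene, AOS1 (Os03g0767000), changed by 0.28 ± 0.16 and was not called (adjusted p = 0.144). Its levels were 2.25, 2.35, 2.56 and 2.10 at 0.005 mM and 2.996, 2.37, 2.35 and 2.67 at 1 mM, and the groups overlapped. AOS2 and AOS1, which encode the same enzyme activity, thus had changes of -2.87 and 0.28 on the same arrays. Their 95% intervals, -3.12 to -2.62 and -0.090 to 0.65, did not overlap, and the difference itself was not tested.

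Of the 3 receptor genes, COI1a and COI1b fell and COI2 was not called. COI1a, an F-box gene of the jasmonate co-receptor, fell by 0.78 ± 0.055 (adjusted p = 4.11e-06), from levels of 1.08 to 1.16 down to 0.21 to 0.43. COI1b fell by 0.35 ± 0.062 (adjusted p = 0.000922). COI2 changed by 0.0093 ± 0.043 and was not called (adjusted p = 0.852), although it was called lower with no scaling (-0.26) and with spike-in scaling (-0.37). The authors' deposited table, described below, lists the same COI2 probe as lower, at -0.13, and does not list its other probe.

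Of the transcription factors with a checked name, bHLH148, which in rice interacts with JAZ proteins in the response to drought, fell by 1.04 ± 0.19 (adjusted p = 0.00127). JAMYB, a MYB gene first described in rice as induced by jasmonate, changed by 0.54 ± 0.23 and was not called (adjusted p = 0.0611). Its other probe was called higher, by 0.66 (adjusted p = 0.0201 over all probes), and JAMYB was called higher with the mean of its probes (0.60, adjusted p = 0.0357) and without replicate 3 at 1 mM (0.72, adjusted p = 0.0106). A further 5 tested loci carry no checked name. Os12g0559200 rose by 0.83 ± 0.099, from a low mean level of -6.55 to -5.72. Only 1 of its 3 probes was kept, and its change was 0.31 after normexp with quantile normalization. Os04g0301500, Os12g0150200, Os08g0162100 and Os10g0575000 had changes of -1.94, -0.64, -0.49 and -0.36, all called lower. Os10g0575000 lost its call in 6 of the 19 alternatives.

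**Figure D4:**
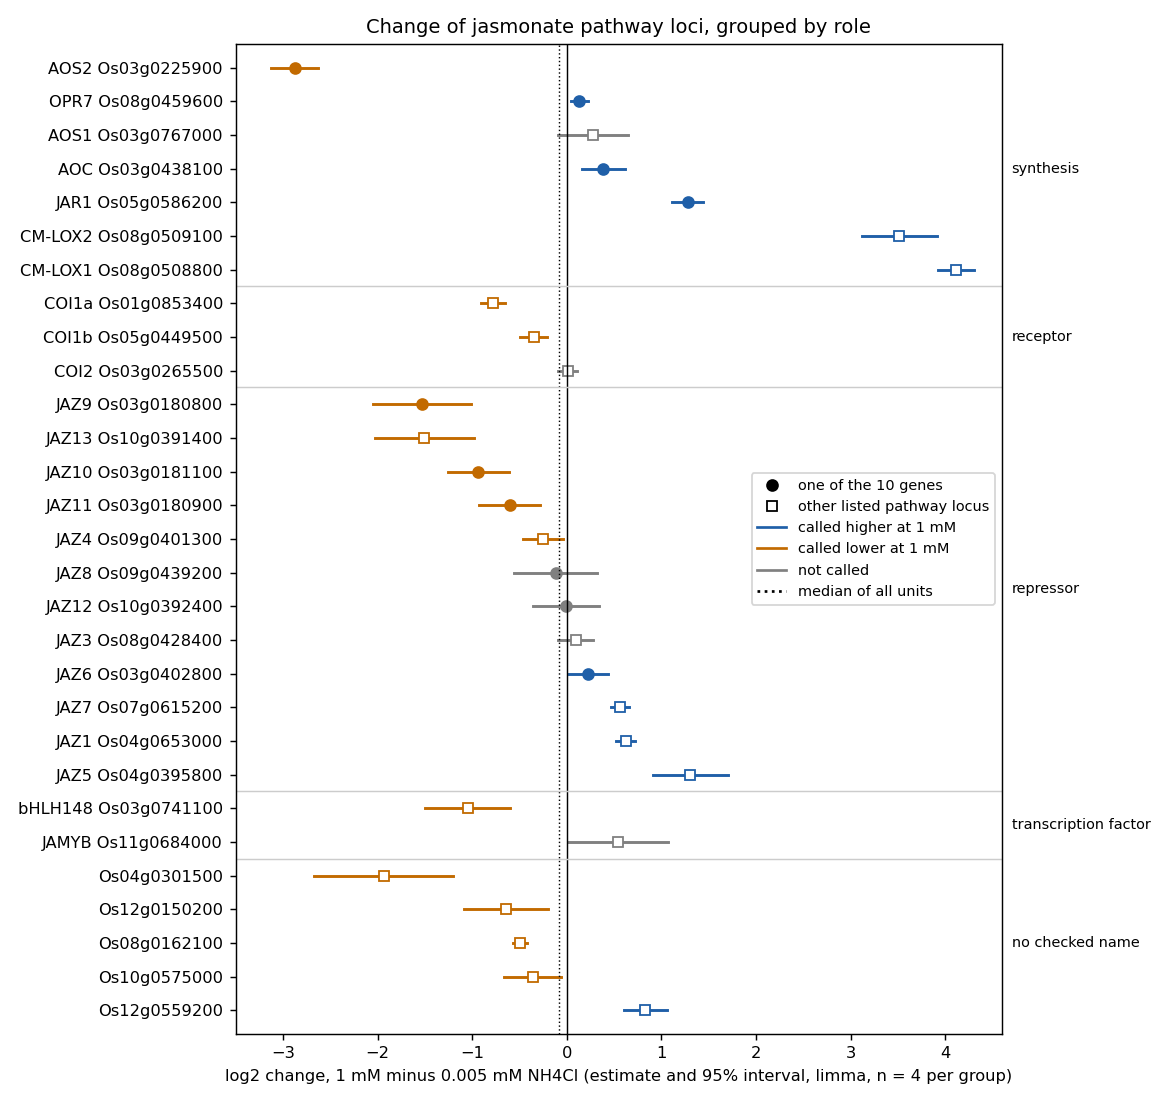
Log2 change, 1 mM minus 0.005 mM NH4Cl, with its 95% interval (x axis) for the 10 genes (filled circles) and the 19 other tested pathway loci (open squares). Loci are grouped by role, and those without a checked name form a group of their own. Blue was called higher, orange lower and grey not called, and the dotted line is the median of all units. CM-LOX1 at 4.11 and AOS2 at -2.87 lie at opposite ends.

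Beside the 6 chosen repressors, 6 more JAZ genes on the list were tested. JAZ5 rose by 1.31 ± 0.17 (adjusted p = 0.000171), from levels of -3.40 to -2.55 up to -1.79 to -1.47. JAZ1 rose by 0.62 ± 0.044 and JAZ7 by 0.56 ± 0.040. JAZ7 kept that call under 18 of the 19 alternatives, the exception being spike-in scaling with 0.18. JAZ3 changed by 0.093 ± 0.079 and was not called. JAZ4 had a change of -0.25 ± 0.093 (adjusted p = 0.0369) that lost its call in 9 alternatives. Taken singly, its 3 probes had changes of -0.58 to -0.25 and were all called lower. JAZ13 fell by 1.504 ± 0.23 (adjusted p = 0.000360), from levels of 2.11, 2.24, 2.04 and 1.297 to 0.82, 0.13, 0.41 and 0.32. Over all 12 JAZ genes tested, 4 were called higher, 5 lower and 3 were not called, a share called that is close to the 76.1% of all units.

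JAZ9 to JAZ13 are the genes that the gene table names TIFY11A to TIFY11E, a grouping made after their values were seen. Of these 5, JAZ12 alone was not called, while JAZ9, JAZ10, JAZ11 and JAZ13 fell by 0.61 to 1.53 log2 units. JAZ12 and JAZ13 lie near each other on chromosome 10, with 2 protein-coding genes between them, and had changes of -0.0062 and -1.504.

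On some arrays most JAZ genes lay to the same side of their group's mean. Replicate 1 at 1 mM was the highest of its group for all 12 JAZ genes, while it was the highest for 36.3% of all units. Its lead over the next array ranged from 0.013 for JAZ7 to 0.54 for JAZ9. At 0.005 mM, replicate 3 was the highest for 10 of the 12, against 23.6% of all units, and JAZ10 and JAZ13 were the exceptions. Some loci other than JAZ genes had the same pattern. AOC, JAR1, AOS1 and bHLH148 were highest of their group on both of these arrays, while COI1a, COI1b and COI2 were highest on neither. Of the 19 other pathway loci, 14 were highest in replicate 3 at 0.005 mM and 13 in replicate 1 at 1 mM. These counts include 6 JAZ genes already counted above, so they do not separate JAZ genes from other loci. Over all units, the median absolute deviation from the group mean was 0.0811 for replicate 1 at 1 mM. It was 0.0422 to 0.0633 for the other arrays. Of the 10 chosen genes, 9 were highest in replicate 1 at 1 mM, AOS2 being the exception, and 8 in replicate 3 at 0.005 mM. At 0.005 mM, replicate 4 was the lowest for 5 of the 10 and replicate 1 for the other 5, against 20.8% and 30.6% of all units. In replicate 4 at 0.005 mM, JAZ9 to JAZ13 lay 0.19 to 0.63 log2 units below their group mean, while JAZ5 lay 0.18 above it. Without any one of the 8 arrays the change of JAZ9 was -1.72 to -1.43, that of JAZ10 -1.07 to -0.86 and that of JAZ11 -0.73 to -0.51.

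**Figure D5:**
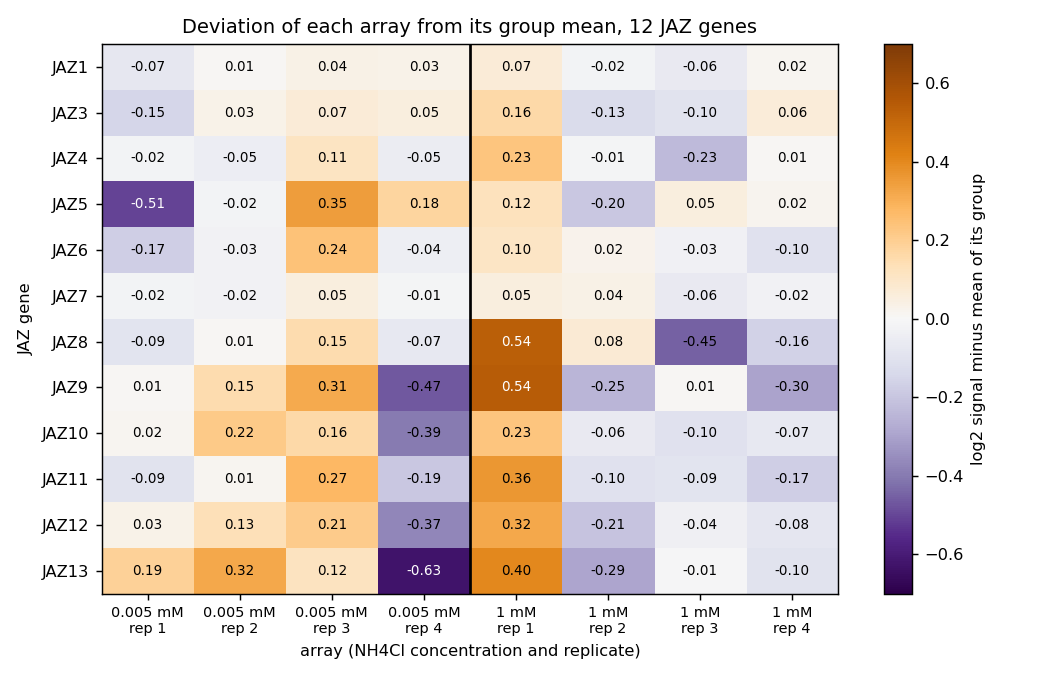
Log2 signal minus the mean of its concentration group (colour, with the value printed) for the 12 tested JAZ genes (rows) on the 8 arrays (columns, by NH4Cl concentration and replicate). The column of replicate 1 at 1 mM is the highest of its group in all 12 rows, and replicate 4 at 0.005 mM is low for JAZ9 to JAZ13.

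The authors' deposited table lists features past a false discovery rate, and 64.9% of the array's non-control spots are in it. Of the 19 probes for the 10 genes, the authors' deposited table lists 10, of which 1 is higher and 9 are lower in the average it calls nitrogen sufficient. In the authors' deposited table the 4 AOS2 probes have log2 ratios of -3.03 to -2.77, JAZ9 has -1.66, JAZ10 has -1.10 and -1.08, JAZ11 has -0.73 and JAR1 has 1.14. The remaining listed probe in the authors' deposited table is the dimmest JAZ6 probe, at -1.22. Each of these ratios lies below the change found here for the same probe, as with 1.14 against 1.28 for JAR1. The authors' scaling may differ from the one used here, which was not tested. No probe of AOC, OPR7, JAZ8 or JAZ12 is in the authors' deposited table, nor are the other JAZ6 probes.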

How the data were processed

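Rice root RNA was measured on 8 Agilent arrays, 4 at each ammonium concentration. The deposited array files were written by Agilent Feature Extraction (10.10.1.1 in the file headers) and hold spot intensity, with a processed signal that the software had background-corrected, and flags for outlying and well-above-background spots. The authors' deposited table holds p-values, q-values and the log2 ratio between the average signals of the groups it names nitrogen sufficient and deficient, taken as 1 mM and 0.005 mM. Its 8 per-array columns were not used.

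Here each processed signal was put on the log2 scale and the array's 75th percentile over non-control spots was subtracted. Control and outlier-flagged spots were left out, and a probe was kept if well above background on at least 4 arrays. The brightest kept probe stood for its locus, which left 24981 units (24777 loci). The concentrations were tested against each other by limma (version 3.58.1, R version 4.3.3) using lmFit and eBayes. Its two-sided p-values were adjusted by Benjamini-Hochberg across the 24981 units. Only the limma fit was tested on simulated data, in which most units were unchanged, unlike on these arrays. Differences between neighbouring JAZ genes used exact permutation tests. The deposited files lack mean signals, so the planned normexp alternative used median signals.

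The members and lists were chosen with earlier results of these data known. All 10 members are named, with tested pathway loci whose name was borne out. Of 45 pairs of a locus and a symbol, 33 symbols were in the RefSeq gene table, and 31 passed a check that the relative position along the chromosome matched within 5 percentage points, including all 10 members. That check cannot tell neighbours apart. The other loci keep their identifiers. Planned motif searches were not run, since no promoter or protein sequences were used here. Alternatives covered scaling, background correction, filter, probe choice, replicate block, array weights, variance model and each array left out.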

Additional observations from a re-analysis of the deposited data

Results flagged for a closer look

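In 7 of the 80 groups of 4 arrays examined (40 loci at 2 concentrations), 1 array lay farther from the others than Dixon's 95% limit allows. Chance gives about 1 in 20 groups. For the 10 genes, 3 of 20 groups did so. OPR7 at 0.005 mM had 2.746 in replicate 1, against 2.771 to 2.775 in the others. In replicate 1 at 1 mM, JAZ10 had 3.172 against 2.840 to 2.881, and JAZ11 had 2.026 against 1.488 to 1.572. Among the other loci, JAZ3 had -0.4048 in replicate 1 at 0.005 mM against -0.2225 to -0.1871, and JAZ7 had 4.834 in replicate 3 at 0.005 mM against 4.756 to 4.769. In replicate 4 at 0.005 mM, bHLH148 had -0.6896 against 0.057 to 0.12, and Os04g0301500 had 0.7975 against 1.724 to 1.908.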

How the results depend on the processing

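Of the 10 genes, AOS2, JAR1, JAZ8, JAZ9, JAZ10 and JAZ11 kept their direction or lack of a call under the 19 alternatives, as did 22 of the 30 other loci. The 4 genes called higher became 1, JAR1, with no scaling, with quantile normalization, with spike-in scaling and with normexp and quantile normalization, while those called lower were 4, 5, 6 and 4 (OPR7 added with quantile normalization, OPR7 and JAZ12 with spike-in scaling). In that order OPR7 reversed to -0.14, -0.11, -0.25 and -0.082, and JAZ6 to -0.045, -0.010, -0.16 and -0.022; JAZ6 was also reversed with the mean of its probes (-0.21). COI2 was -0.26 with no scaling and -0.37 with spike-in scaling, and JAZ3 was -0.29 with the latter. All units called higher numbered 4884 with no scaling, 4022 with spike-in scaling and 12138 with every probe as a unit, where more units were tested. The other causes were not tested. JAZ9 and JAZ10 changes differed by -0.32 after quantile normalization and -0.25 after normexp and quantile normalization, neither past the threshold (exact adjusted p = 0.114 and 0.0857). Without 1 array this difference was -0.70 to -0.52, that of JAZ9 and JAZ11 -1.02 to -0.88 and that of JAZ10 and JAZ11 -0.40 to -0.26, and 3 to 4 of the 10 genes were called higher and 4 lower; the exact adjusted p of these pairs was 0.0429 or 0.0571. Same-numbered replicates of the 2 groups had deviations correlated at 0.32, -0.01, 0.10 and 0.08 (replicates 1 to 4). The highest value between replicates of different number was 0.10, so replicate 1 stood above it. For 2 numbers the same-numbered arrays were each other's best match. These values do not settle whether the samples were paired. With the replicate block 8111 units were called higher and 11018 lower, and JAZ6 lost its call (adjusted p = 0.0803). The slide could not be a block, because each held 1 group. All probes of the 10 genes were well above background on all arrays; JAZ6 lost its call with no filter on dim probes (adjusted p = 0.0643).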
